A study of Mus musculus with 12 samples.

Results

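The genes described here are 8 mouse genes of blood formation: the embryonic globins Hbb-bh1 and Hba-x, the transcription regulators Gfi1b, Tal1, Lmo2, Runx1 and Spi1, and the GTPase gene Gimap4. They were picked by name, with earlier results of these data known. Each was read from the gene-level row that carries its symbol alone. That held for 7 of the 8 genes, out of 23332 gene-level rows and 14996 with a single symbol. Hbb-bh1 shares its gene-level row with the neighbouring Hbb-bh2 and was therefore read as the mean of its 6 exon-level probe sets, out of 16358 genes averaged in that way. Together the 8 genes have 68 of the 229581 exon-level probe sets, between 5 for Hba-x and 12 for Runx1.

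The samples were taken at day 0 from undifferentiated mouse ES cells, at day 7 from embryonic bodies and at day 14 from cardiac bodies. There were 2 samples per stage. All were cultured in DMEM-based medium with 10% serum, the later stages towards cardiomyocytes. Embryonic bodies are three-dimensional aggregates of differentiating ES cells, and cardiac bodies are the later aggregates that hold cardiomyocytes. Each sample was hybridised to an Affymetrix exon array, which carries several probe sets along a gene, and log2 signals were deposited for genes and for single exons. The labels name no strain, cell line, genetic change or treatment, and do not say whether the 2 samples of a stage were separate cultures, so a p-value here measures only the spread between samples, which may be technical.

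Blood first forms in the yolk sac of the mouse embryo, where mesoderm gives rise to endothelium and to primitive red cells that carry embryonic globins. Tal1, Lmo2 and Gata factors form a DNA-binding complex, held together by Ldb1, that acts on erythroid and endothelial genes, while Runx1 is needed for blood cells to arise from hemogenic endothelium. Aggregates of differentiating ES cells are known to form such blood cells without further instruction.

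The stages were checked against markers. All 8 ES cell markers fell at day 7 and all 7 measured cardiomyocyte markers rose at day 14 (limma, adjusted p under 0.05, over all rows). The mean log2 signal of the ES markers was 10.7 and 10.7 in ES cells, 7.72 and 7.57 in embryonic bodies and 9.72 and 10.1 in cardiac bodies, and 5 of the 8 were called higher in cardiac bodies than in embryonic bodies. The 2 embryonic body samples differed from each other in part of the blood genes and of the endothelial genes, and in other genes too. The day 7 values are therefore given for both samples. The tests and the list counts or medians these samples bear on are repeated with each left out. For the lists this was chosen after seeing the data. Across all gene-level rows these 2 samples correlated at 0.978, as against 0.974 for the ES cell samples and 0.973 for the cardiac body samples.

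The promoters of 3 of the genes are shown because their signals at day 7 differed most between the 2 embryonic body samples or changed most between stages, and because each holds a GATA motif. The sequences are the 250 bases before the transcription start from RefSeq on GRCm38.p6, at chr11:32276350-32276599 (plus strand) for Hba-x, chr2:28621983-28622232 (minus strand) for Gfi1b and chr6:48684328-48684577 (plus strand) for Gimap4. They are written 5′ to 3′ on the strand of the gene, with the motif TGATAA in capitals, which appears as TTATCA where it lies on the opposite strand.
Hba-x: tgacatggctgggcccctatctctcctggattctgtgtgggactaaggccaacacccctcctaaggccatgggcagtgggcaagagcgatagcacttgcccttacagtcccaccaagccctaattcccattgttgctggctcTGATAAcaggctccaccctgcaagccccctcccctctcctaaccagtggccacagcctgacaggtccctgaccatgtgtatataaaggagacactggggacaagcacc
Gfi1b: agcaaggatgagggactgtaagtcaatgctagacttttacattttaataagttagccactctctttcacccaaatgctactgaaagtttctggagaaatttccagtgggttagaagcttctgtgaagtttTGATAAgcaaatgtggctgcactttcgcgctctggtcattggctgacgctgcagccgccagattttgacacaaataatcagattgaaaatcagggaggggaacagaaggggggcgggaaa
Gimap4: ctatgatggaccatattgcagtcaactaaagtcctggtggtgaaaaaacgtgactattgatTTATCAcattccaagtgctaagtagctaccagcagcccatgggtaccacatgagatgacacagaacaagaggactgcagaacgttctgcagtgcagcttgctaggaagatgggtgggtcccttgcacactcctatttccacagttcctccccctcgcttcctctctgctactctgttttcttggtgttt
The first base of the motif lay 108 bases before the start of Hba-x, 120 before that of Gfi1b and 189 before that of Gimap4. A promoter was at hand for 5 of the 8 genes, in 7 windows, of which 3 held TGATAA on either strand, against 7.94% of all 32851 windows of that length. The related motif AGATAA was in 1 of the 7, a Tal1 window, against 9.99% of all windows. The E-box CANNTG, the motif bound by Tal1 with its partners, was in 4 of the 7 windows against 66.2% of all, and the box CACCC in 5 of the 7 against 52.0%. The ETS motif AGGAAG was in 2 of the 7 against 29.5%, and the RUNX motif TGTGGT in 1 of the 7 against 14.0%. The motifs were chosen with expression results known, and these matches describe letters in a window and not factor binding.

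The embryonic globins had their highest signals in the embryonic bodies, and in very different amounts in the 2 samples. Hba-x, the embryonic alpha-like (zeta) globin, had a log2 signal of 6.69 and 6.85 in ES cells, 12.31 and 8.62 in embryonic bodies and 7.07 and 6.92 in cardiac bodies. Both embryonic body samples lay above all 4 other samples, and replicate 1 lay 3.70 above replicate 2, a 12.95-fold difference in signal. Hbb-bh1, an embryonic beta-like globin, had a mean probe set signal of 3.82 and 3.57 in ES cells, 8.92 and 5.12 in embryonic bodies and 3.53 and 3.44 in cardiac bodies. Again both embryonic body samples lay above the others, with replicate 1 higher by 3.80, or 13.96-fold. The gene-level row shared by Hbb-bh1 and Hbb-bh2 read 9.23 and 4.67 in embryonic bodies against 3.91 and 3.79 in ES cells. Probe sets of beta-like globin genes of near-identical sequence may bind each other's RNA, so the assignment of the signal to Hbb-bh1 is uncertain to that extent.

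Neither globin passed the main test between embryonic bodies and ES cells. The log2 change of Hba-x was 3.70 ± 1.11 (SE, limma adjusted p = 0.103) and that of Hbb-bh1 was 3.33 ± 1.01 (limma adjusted p = 0.0604). In the exon-level means both passed with the replicate number as a block, Hbb-bh1 with a limma adjusted p of 0.0426 and Hba-x of 0.0432, and with the median of probe sets (limma adjusted p = 0.0428 and 0.0187). At the gene level Hba-x did not pass with the block, centring, quantile normalization or an intensity trend (limma adjusted p from 0.0889 to 0.0927). Hba-x was called in 2 of 12 alternatives at the gene level and in 5 of 13 in the exon-level means. Hbb-bh1 was called in 4 of 12 alternatives. The 2 gene-level calls of Hba-x, and some of the exon-level calls, came from fits with 1 embryonic body sample left out. Such a fit holds no estimate of the spread at day 7 and takes that of the other stages. Between the day 7 samples the SD was 2.61 for Hba-x and 2.69 for Hbb-bh1, against 0.18 or less in the other stages. These calls are therefore no support for the rise. With replicate 1 left out, Hba-x was higher by 1.85 and Hbb-bh1 by 1.42. With replicate 2 left out, Hba-x was higher by 5.54 and Hbb-bh1 by 5.23. In cardiac bodies both globins were back near the ES cell level, with changes against ES cells of 0.22 ± 1.11 for Hba-x and -0.21 ± 1.01 for Hbb-bh1 (limma adjusted p = 0.957 and 0.949). In this bulk RNA, fewer cells of a type and less RNA per cell cannot be told apart.

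**Figure D1:**
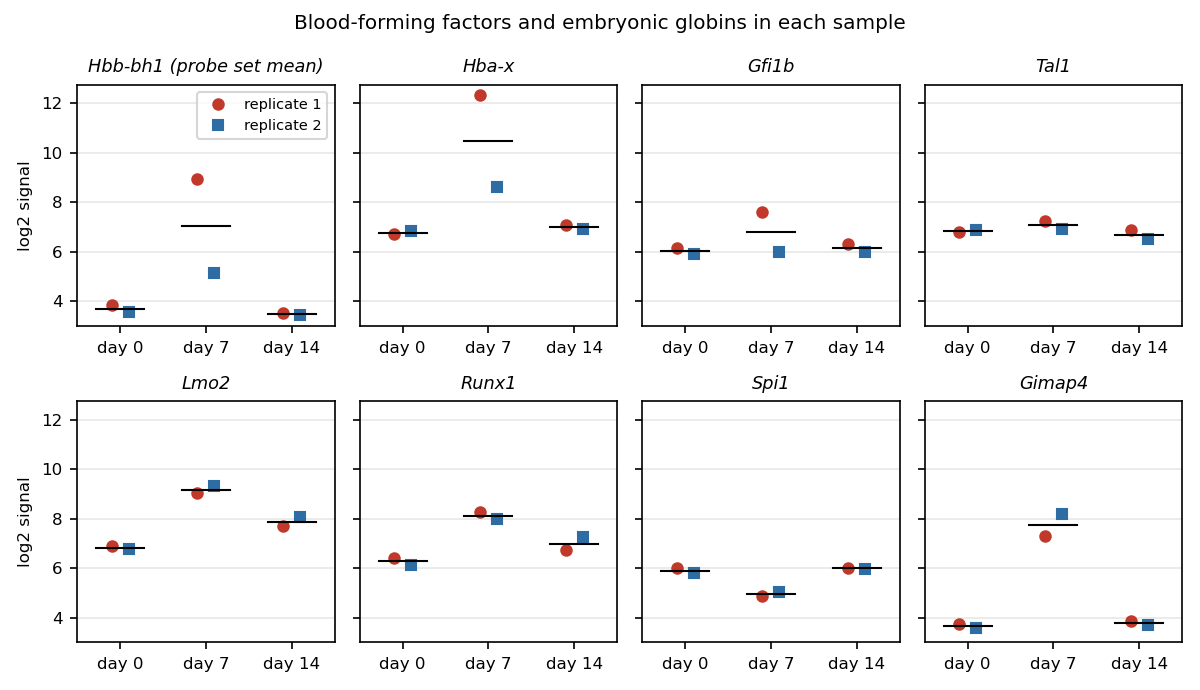
Log2 signal (vertical axis) of the 8 genes in each of the 6 samples, by stage on the horizontal axis. Circles are replicate 1, squares replicate 2 and bars the mean of the 2. Hba-x reads 12.31 and 8.62 at day 7 against 6.69 and 6.85 at day 0, and Lmo2 reads 9.03 and 9.31 at day 7 against 6.89 and 6.77 at day 0.

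Gfi1b, a zinc-finger repressor required for erythroid and megakaryocyte development, followed the globins in 1 of the 2 samples only. Its log2 signal was 6.14 and 5.88 in ES cells, 7.59 and 5.97 in embryonic bodies and 6.29 and 5.97 in cardiac bodies. Replicate 1 of the embryonic bodies stood above the 5 other samples, and replicate 2 lay within the range of the ES cells. The change at day 7 was 0.77 ± 0.52 and was not called (limma adjusted p = 0.431). It was 1.58 without replicate 2 (limma adjusted p = 0.0603) and -0.04 without replicate 1 (limma adjusted p = 0.961). Gfi1, the related repressor, read 6.04 and 5.83 in embryonic bodies against 6.10 and 5.89 in ES cells and was not called.

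Tal1, the basic helix-loop-helix factor at the start of blood formation, did not pass the test in any comparison. Its log2 signal was 6.78 and 6.88 in ES cells, 7.25 and 6.89 in embryonic bodies and 6.87 and 6.50 in cardiac bodies. The embryonic body samples were the highest of the 6, replicate 2 by a narrow margin over an ES cell sample. The change was 0.24 ± 0.22 at day 7 against day 0 (limma adjusted p = 0.569) and -0.39 ± 0.22 at day 14 against day 7 (limma adjusted p = 0.452). The change at day 7 was 0.06 without replicate 1 of the embryonic bodies (limma adjusted p = 0.933) and 0.42 without replicate 2 (limma adjusted p = 0.484). The exon-level means gave larger values that were not called either, 0.51 ± 0.23 at day 7 against day 0 (limma adjusted p = 0.186) and -0.76 ± 0.23 at day 14 against day 7 (limma adjusted p = 0.0993). No probe set of Tal1 was called. Probe set 4862497 read 8.79 and 7.72 in embryonic bodies against 5.57 and 6.98 in ES cells, and changed by -3.07 at day 14 against day 7 (limma adjusted p = 0.0505). Probe set 4673311 read 6.72 and 5.97 in embryonic bodies against 3.95 and 5.06 in ES cells. Of the 10 probe sets of Tal1, 9 were higher in replicate 1 than in replicate 2 of the embryonic bodies, by a median of 0.40, and 2 of the 10 differed by 1 or more.

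Lmo2, the LIM-only protein that bridges Tal1 and Gata factors, rose at day 7 and did so alike in both samples. Its log2 signal was 6.89 and 6.77 in ES cells, 9.03 and 9.31 in embryonic bodies and 7.70 and 8.05 in cardiac bodies. The 3 stages did not overlap, and cardiac bodies lay between the other two. Lmo2 rose by 2.34 ± 0.21 in embryonic bodies against ES cells, 5.06-fold (limma adjusted p = 0.00445), and fell by 1.29 ± 0.21 in cardiac bodies against embryonic bodies (limma adjusted p = 0.0426). The first call held in all 12 alternative settings, with adjusted p from 0.00219 to 0.0366, while the second was lost when any 1 of the 6 samples was left out (limma adjusted p from 0.0928 to 0.181) and with the replicate number as a block (limma adjusted p = 0.0524). Cardiac bodies read higher than ES cells by 1.05 ± 0.21, which was not called at the gene level (limma adjusted p = 0.0692), and by 1.25 ± 0.20 in the mean of the probe sets, which was (limma adjusted p = 0.00926). The exon-level call was lost without ES cell replicate 1 (limma adjusted p = 0.0717) or replicate 2 (limma adjusted p = 0.0508).

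Runx1, the DNA-binding subunit of core-binding factor, also rose at day 7. Its log2 signal was 6.40 and 6.14 in ES cells, 8.26 and 7.97 in embryonic bodies and 6.72 and 7.25 in cardiac bodies. The stages did not overlap. The rise was 1.85 ± 0.25 in embryonic bodies against ES cells, 3.60-fold (limma adjusted p = 0.0131). In the gene-level fit it was lost when any 1 of the 4 samples of these stages was left out, with changes from 1.70 to 1.99 and limma adjusted p from 0.0532 to 0.0759, whereas in the exon-level means it was 2.11 ± 0.28 (limma adjusted p = 0.00266) and called in all 13 alternatives. The difference between cardiac bodies and embryonic bodies, -1.13 ± 0.25, was not called (limma adjusted p = 0.0890). Cbfb, the partner subunit of Runx1, read 10.5 and 11.0 in embryonic bodies against 9.85 and 10.3 in ES cells and was not called (limma adjusted p = 0.238).

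Spi1, which encodes the ETS factor PU.1 of myeloid and B cells, went the other way. Its log2 signal was 6.01 and 5.79 in ES cells, 4.86 and 5.04 in embryonic bodies and 6.01 and 5.97 in cardiac bodies. Both embryonic body samples lay below the 4 others, which overlapped each other. All 6 signals lay below 6.47, the lowest median of any sample. Spi1 fell by 0.95 ± 0.18 in embryonic bodies against ES cells (limma adjusted p = 0.0313). It rose in cardiac bodies against embryonic bodies by 1.04 ± 0.18 (limma adjusted p = 0.0486). In the exon-level means these changes were -0.97 ± 0.18 and 0.79 ± 0.18 (limma adjusted p = 0.00958 and 0.0369). At the gene level both calls were lost when any 1 of the 6 samples was left out, with limma adjusted p from 0.0597 to 0.150 for the fall and from 0.0970 to 0.195 for the rise. The rise was also lost with samples centred on their medians (limma adjusted p = 0.0765), with quantile normalization (limma adjusted p = 0.0620), with an intensity trend (limma adjusted p = 0.0594) and with the replicate number as a block (limma adjusted p = 0.0647).

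Gimap4, a GTPase of the immunity-associated protein family best known from lymphocytes, rose in both embryonic body samples. Its log2 signal was 3.73 and 3.57 in ES cells, 7.29 and 8.18 in embryonic bodies and 3.86 and 3.70 in cardiac bodies. Both embryonic body samples stood far above the 4 others, which lay close together. Gimap4 rose by 4.09 ± 0.32 in embryonic bodies against ES cells, 17.0-fold in signal (limma adjusted p = 0.00336), and fell by 3.95 ± 0.32 in cardiac bodies against embryonic bodies (limma adjusted p = 0.00648). Only 12.4% of gene-level rows had a lower mean signal in ES cells, and since array signals this low may hold background, the fold may understate the change in RNA. The rise was called in all 12 alternatives, and the fall in 11 of 12, the exception being the fit without replicate 1 of the cardiac bodies (limma adjusted p = 0.0518). Of the 7 other measured Gimap genes none was called at day 7 in either direction, and their median change was -0.07 against -0.02 over all rows. Gimap6 came nearest, with 5.24 and 7.29 in embryonic bodies against 4.03 and 3.73 in ES cells (limma adjusted p = 0.0837).

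Counted over the 7 genes with a gene-level row, 3 rose and 1 fell in embryonic bodies against ES cells, where 10.6% of all rows were called (5.35% higher and 5.28% lower). Their median change was 1.85 against -0.02 over all rows. Since the genes were chosen with earlier results of these data known, these counts and medians are no independent test of the set. None of the 7 was called by limma in cardiac bodies against ES cells, where 3.32% of rows were called (2.63% higher and 0.686% lower). There 2 of the 7, Lmo2 and Runx1, had an unadjusted p under 0.05, and in the exon-level means 1 of 8, Lmo2, was called beside 8.52% of all genes. In cardiac bodies against embryonic bodies 1 of the 7 rose and 2 fell, where 3.13% of rows were called (2.11% higher and 1.02% lower), and the median change was -1.13 against 0.01 over all rows. The samples of the stages did not overlap for 6 of the 7 genes between embryonic bodies and ES cells, as for 56.5% of all rows, for 3 of the 7 between cardiac bodies and ES cells (46.0% of rows) and for 6 of the 7 between cardiac bodies and embryonic bodies (48.1%). In the exon-level means, 4 of the 8 genes were called at day 7 against day 0 (19.2% of all genes) and 3 of 8 at day 14 against day 7 (8.75%), and 4 and 3 genes were called both here and at the gene level.

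**Figure D2:**
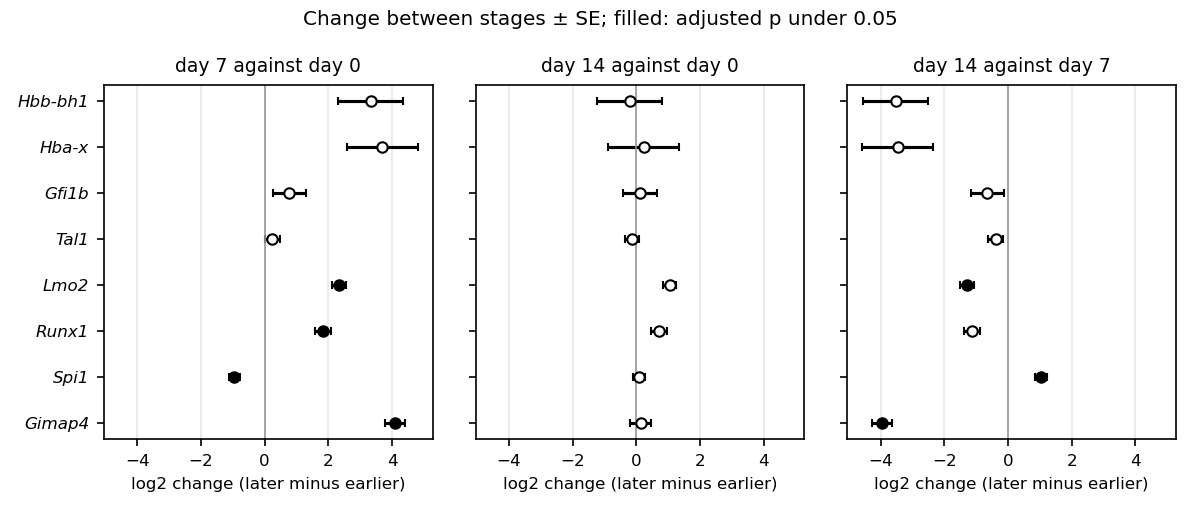
Log2 change of each gene (horizontal axis, later minus earlier stage, ± SE) in the 3 comparisons, with genes down the vertical axis. Filled points passed the test at an adjusted p under 0.05. Lmo2, Runx1 and Gimap4 are filled to the right and Spi1 to the left at day 7 against day 0, and the bars of Hba-x and Hbb-bh1 span more than 1 unit to each side.

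The 2 embryonic body samples were then compared gene by gene. Over all gene-level rows, the size of their difference had a median of 0.227, and the central 95% of differences ran from -1.07 to 1.04. Only 9 of 23332 rows differed by more than Hba-x, which ranked 8 among the rows with a single symbol, and 5 of 16358 exon-level gene means by more than Hbb-bh1. The single-symbol rows ranked above Hba-x were Hoxc8 (4.61), Hbb-y (4.58), Ttr (4.34), Tdo2 (4.05), Spink1 (3.97), Hand1 (3.84) and Foxf1 (3.72). All were higher in replicate 1 and are named after their values were seen. The difference between these samples was thus not confined to blood and endothelial genes. Gfi1b was higher in replicate 1 by 1.62, with 340 rows differing by more. Gimap4 was lower in replicate 1, with a difference of -0.90 and 1683 rows differing by more. The differences of Lmo2 (-0.28), Runx1 (0.28), Tal1 (0.36) and Spi1 (-0.18) exceeded those of 58.5%, 58.6%, 67.8% and 42.1% of rows. In the exon-level means their differences were -0.13, 0.50, 0.46 and 0.02, and exceeded those of 33.5%, 84.2%, 81.5% and 5.67% of genes. Within the ES cells and within the cardiac bodies no gene of the 8 differed by more than 0.53 between replicates in its main measurement. That was the size of the difference of Runx1 in cardiac bodies, which was 0.62 in the exon-level means.

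Other red-cell genes were higher in the same embryonic body sample as the embryonic globins. All 18 measured members of a list of further globin and erythroid genes were higher in replicate 1, by a median of 0.67, where 46.0% of all rows were higher in that sample. Of these, 6 were higher by 1 or more, compared with 2.70% of all rows, and they are named here after their values were seen. Hbb-y, the other embryonic beta-like globin, read 10.5 and 5.90, and Alas2, the erythroid enzyme that starts heme synthesis, read 8.70 and 5.33. Epb42, Slc4a1 and Rhag, which belong to the red-cell membrane, and Kel, a red-cell surface antigen, were higher by 2.07, 1.84, 1.86 and 1.99. The mean log2 signal of the list was 6.10 and 6.02 in ES cells, 7.44 and 6.21 in embryonic bodies and 6.30 and 6.12 in cardiac bodies, so it stood apart in 1 sample. The share of red cells in each sample was not measured. In the test between embryonic bodies and ES cells 2 of the 18 rose, Sptb by 1.61 (limma adjusted p = 0.0129) and Slc25a37 by 1.47 (limma adjusted p = 0.0306), where 5.35% of all rows were called higher. The median change of the 18 was 0.45. With replicate 1 left out the median was -0.03 and neither call held. With replicate 2 left out the median was 0.82.

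Some blood transcription factors shared that difference. Gata1, the erythroid Gata factor, read 7.84 in replicate 1 and 5.72 in replicate 2 of the embryonic bodies, against 6.22 and 5.95 in ES cells. Klf1, which switches on adult beta globin, read 7.60 and 4.85 in embryonic bodies against 5.44 and 5.72 in ES cells. With Ikzf1 (1.29) and Nfe2 (1.06) these were the 4 of 23 that were higher in replicate 1 by 1 or more, and none was higher in replicate 2 by that much. Klf1, Ikzf1 and Nfe2 are named after their values were seen.

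Between embryonic bodies and ES cells, 6 of the 23 measured blood transcription factors and partners rose and none fell, with a median change of 0.43, where 5.35% of all rows were called higher and 5.28% lower. The median was 0.36 without replicate 1 of the embryonic bodies and 0.79 without replicate 2. Mecom rose by 2.95 ± 0.38 (limma adjusted p = 0.0110), Ssbp2 by 2.85 ± 0.26 (limma adjusted p = 0.00473), Meis1 by 2.47 and Gata3 by 2.39. Tcf12, a helix-loop-helix partner of Tal1, rose by 2.10 ± 0.20 (limma adjusted p = 0.00540), and Ssbp3 by 1.04 ± 0.19 (limma adjusted p = 0.0298). Ssbp2 and Ssbp3 bind Ldb1, the adaptor of the Tal1 and Lmo2 complex. Ldb1 itself read 11.2 and 11.1 in embryonic bodies against 11.2 and 11.4 in ES cells, and neither it nor Lyl1, Gata2 or Gata1 was called. In cardiac bodies against embryonic bodies, where 1.02% of all rows were called lower, 3 of the 23 fell, Mecom (-2.37), Gata3 (-1.75) and Tcf12 (-1.34; limma adjusted p = 0.0397, 0.0391 and 0.0352), none of which was called with either embryonic body sample left out, while Ssbp2 and Meis1 remained above ES cells by 2.85 and 2.76 (limma adjusted p = 0.00711 and 0.00665).

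**Figure D3:**
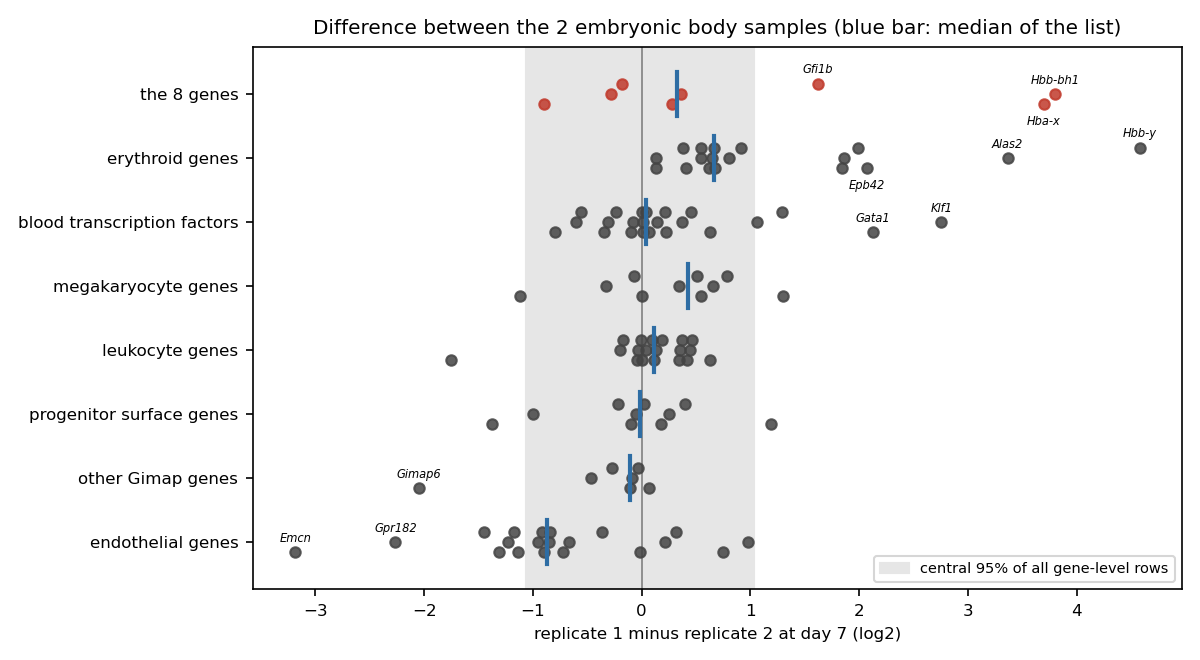
Replicate 1 minus replicate 2 of the embryonic bodies (horizontal axis, log2) for the 8 genes and 7 gene lists (vertical axis). Each point is a gene, the blue bar the median of its list and the grey band the central 95% of all gene-level rows, from -1.07 to 1.04. The erythroid points lie right of zero, with a median of 0.67, and most endothelial points left of it, with a median of -0.87.

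Endothelial genes differed between the same samples in the opposite direction, as Gimap4 did. Of the 20 measured, 16 were lower in replicate 1, with a median difference of -0.87 over the list, and 7 were lower by 1 or more, against 2.90% of all rows. The mean log2 signal of the list was 6.25 and 6.37 in ES cells, 7.37 and 8.15 in embryonic bodies and 6.31 and 6.34 in cardiac bodies. In embryonic bodies against ES cells 9 of the 20 rose and 1 fell, with a median change of 1.05, where 5.35% of all rows were called higher and 5.28% lower. The median was 1.65 without replicate 1 of the embryonic bodies and 0.58 without replicate 2. Cdh5, the cadherin of endothelial junctions, rose by 4.63 ± 0.31 (limma adjusted p = 0.00271), Emcn by 4.62 ± 0.97 (limma adjusted p = 0.0407), Fli1, an ETS factor of endothelium and blood, by 3.43 ± 0.39 (limma adjusted p = 0.00830) and Kdr, the VEGF receptor of early vascular mesoderm, by 3.30 ± 0.32 (limma adjusted p = 0.00532). Emcn read 6.87 in replicate 1 and 10.1 in replicate 2. The 1 that fell was Pecam1, an adhesion molecule that ES cells carry too, by 1.59 (limma adjusted p = 0.0368). In cardiac bodies 5 of the 20 fell against embryonic bodies, where 1.02% of all rows were called lower. Among them were Cdh5 (-3.22) and Kdr (-2.84), with limma adjusted p = 0.0107 and 0.0155. The median change of the list was -1.52, and it was -1.91 without embryonic body replicate 1 and -0.90 without replicate 2. The mean of the list was highest in the embryonic bodies, like the stage means of Lmo2, Runx1 and Gimap4. The same held for Hba-x, Hbb-bh1, Gfi1b and Tal1. Runx1 was higher in replicate 1 of the embryonic bodies by 0.28, unlike most of the list. The part of endothelial cells in those signals was not tested.

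Surface genes of blood progenitors were divided. Of 10 measured, 3 rose and 1 fell in embryonic bodies against ES cells (5.35% of all rows called higher and 5.28% lower), with a median change of -0.07. The median was -0.12 without replicate 1 of the embryonic bodies and -0.03 without replicate 2. Fewer genes of the list were called with either sample left out, as over all rows. Cd44 rose by 3.04, Cd93 by 2.97 and Cd34 by 2.46 (limma adjusted p = 0.00316, 0.0163 and 0.0356), while Spn fell by 1.23 (limma adjusted p = 0.0129). Cd34 and Cd93, which endothelium carries too, were lower in replicate 1, where Cd34 read 8.90 against 10.3 in replicate 2 and Cd93 read 6.18 against 7.18. Kit read 9.74 and 8.56 in embryonic bodies against 9.20 and 9.17 in ES cells, and Ptprc, which encodes the leukocyte antigen CD45, read 3.09 and 3.06 against 3.32 and 3.11. Neither was called, and both are named after their values were seen.

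Of 19 macrophage and leukocyte genes none rose and 3 fell in embryonic bodies against ES cells, with a median change of -0.15. Of all rows 5.35% were called higher and 5.28% lower. The median was -0.21 without replicate 1 of the embryonic bodies and -0.28 without replicate 2. Fewer genes of the list were called with either sample left out, as over all rows. The 3 were Laptm5 (-4.29), Cd68 (-1.82) and Coro1a (-1.36; limma adjusted p = 0.00325, 0.0158 and 0.0180). Laptm5 read 7.66 and 7.03 in embryonic bodies against 11.3 and 11.9 in ES cells. The mean log2 signal of the list was 5.56 and 5.57 in ES cells, 5.05 and 4.97 in embryonic bodies and 5.30 and 5.25 in cardiac bodies. The mean of these genes and the signal of Spi1 were both lowest in the embryonic bodies. So was the mean of the ES cell markers, with 7.72 and 7.57 there against 10.7 and 10.7 in ES cells. However, the 3 genes that fell had the highest ES cell signals of the list, Cd68 reading 9.49 and 9.75 there. None of the other genes of the list was called. The part of white blood cells in the signal of Spi1 was not tested. Of 10 megakaryocyte and platelet genes 2 rose, Plek by 1.03 and Gp5 by 0.78 (limma adjusted p = 0.0318 and 0.0386). These calls did not hold with an embryonic body sample left out. Of 9 early mesoderm genes none was called. Their median change was 0.28, and it was -0.02 without replicate 1 and 0.52 without replicate 2. In the embryonic bodies 6 of the 9 were higher in replicate 1, where 46.0% of all rows were. By 1 or more, 3 were higher in replicate 1 and 1 in replicate 2, against 2.70% and 2.90% of all rows. Foxf1, named after its values were seen, read 12.0 and 8.31 there against 4.53 and 5.60 in ES cells (limma adjusted p = 0.0517).

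The probe sets of a gene did not all change alike, and their positions along the gene are not used here. In embryonic bodies against ES cells 21 of the 68 probe sets rose and 2 fell, beside 8.21% of all probe sets called (4.5% higher and 3.71% lower). Of the 8 probe sets of Lmo2, 5 rose, by 2.82 to 4.36, and the other 3 changed by -0.10 to 0.44. Probe set 4912920 read 9.92 and 10.3 in embryonic bodies against 5.13 and 6.37 in ES cells, whereas probe set 5499973 read 6.64 and 6.86 against 6.89 and 6.80. For Runx1 7 of 12 rose, for Gimap4 8 of 10 and for Hba-x 1 of 5, and for Spi1 2 of 7 fell. In cardiac bodies against ES cells 2 of the 68, both of Lmo2, rose beside 3.24% of all probe sets called (2.79% higher and 0.45% lower), and against embryonic bodies 7 fell beside 2.62% (1.93% higher and 0.689% lower), of which 6 were of Gimap4 and 1 of Lmo2.

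The difference between the 2 embryonic body samples ran through whole genes. All 5 probe sets of Hba-x were higher in replicate 1, by 2.95 to 4.50, as were all 6 of Hbb-bh1, by 0.87 to 5.66, and all 10 of Gfi1b, by 0.19 to 4.01. Of the 10 Gimap4 probe sets 9 were higher in replicate 2, and the median difference was -0.89. Lmo2 had no probe set that differed by 1 or more between these samples. The least bright probe set of Hbb-bh1, 5519097, read 2.83 and 1.95 in embryonic bodies against 1.84 and 1.65 in ES cells, while the brightest, 5407311, read 12.4 and 7.50 against 3.76 and 4.33.

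**Figure D4:**
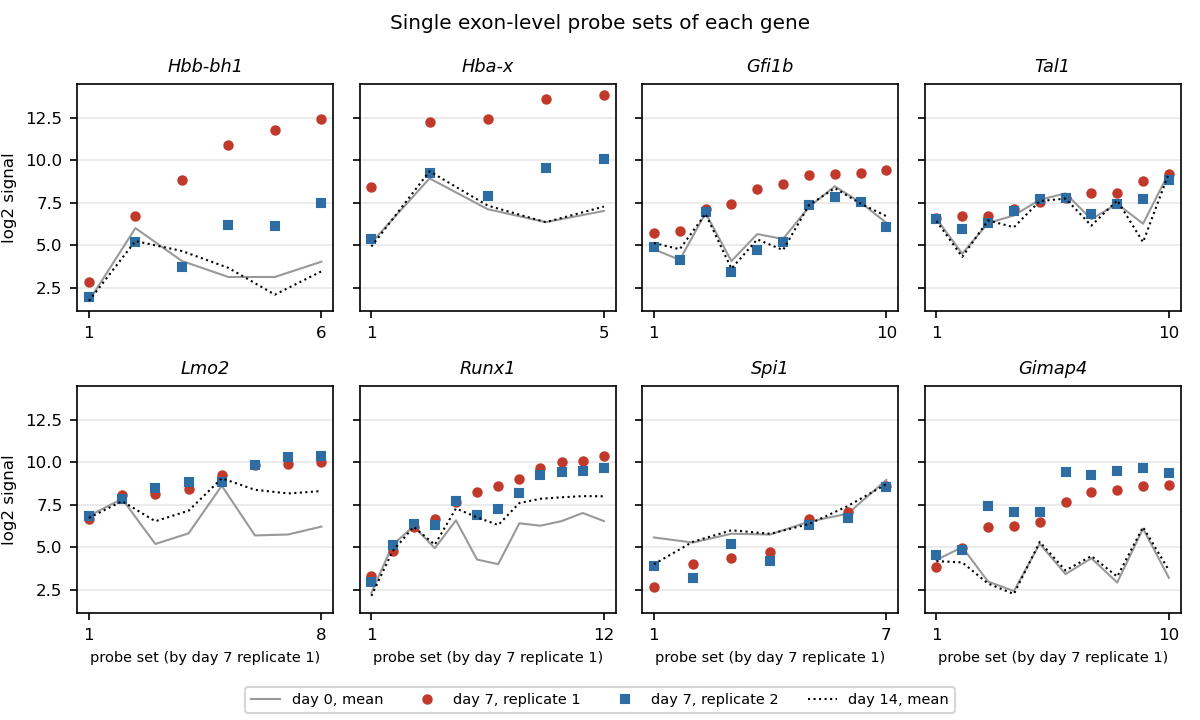
Log2 signal (vertical axis) of the single probe sets of each gene, ordered along the horizontal axis by their signal in day 7 replicate 1. Circles and squares are replicates 1 and 2 of the embryonic bodies, the grey line the mean of the ES cells and the dotted line that of the cardiac bodies. All probe sets of Hba-x, Hbb-bh1 and Gfi1b are higher in replicate 1, and 3 of the 8 Lmo2 probe sets stay near the ES cell level.

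Exon usage, the log2 difference between a probe set and its gene's median, could be tested with the main signal filter for 1 gene in 1 comparison. Lmo2 passed the signal filter between cardiac bodies and embryonic bodies, where its 8 probe sets changed by -0.96 to 0.99 and none was called (limma, lowest adjusted p = 0.619, with 5 at an unadjusted p under 0.05). In that comparison 0.0% of the 100538 probe sets tested were called, with 903 at an unadjusted p under 0.05. With a lower filter on the gene's signal, 2 of the 8 Lmo2 probe sets were called in embryonic bodies against ES cells (limma, lowest adjusted p = 0.0307), where 0.091% of 144998 probe sets were. The differences of the 8 ran from -2.72 to 1.74. The genes with signals near the lower end of the array stayed out of this test.

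For each gene the 3 genes with the most similar profile were found by Pearson correlation over the 6 samples, among 5434 or 5435 gene-level rows, or 6123 exon-level means for Hbb-bh1, that ranged over 1 or more. The values are descriptions, since the samples fall into 3 stages and stage differences alone give high correlations. Nearest to Hbb-bh1 was Hbb-y (0.997), a globin of the same locus, and nearest to Hba-x were Igsf11 (0.997), Dnm3 and Igdcc3. Gfi1b was nearest to Tmem158 (0.995), Slc6a4 and Pkhd1l1, which share its high value in replicate 1 of the embryonic bodies. Slc6a4 read 6.62 and 5.30 there, against 5.38 and 5.23 in ES cells. Lmo2 was nearest to Plat (0.998), Rnf130 and Grip1, and Runx1 to Mmp2 (0.998), Myo6 and Notch3. Plat, the tissue plasminogen activator, read 9.09 and 9.44 in embryonic bodies against 5.79 and 5.46 in ES cells, and Mmp2, a matrix protease, read 10.8 and 10.2 against 7.71 and 7.37. Gimap4 was nearest to Tada1 (0.997), Arap3 and Lhx1, Spi1 to Acan (0.994), Retsat and H2ac1, and Tal1 to Olfr1348 (0.966), Olfr872 and Hoxb8.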

How the data were processed

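Transcript levels were measured on the Affymetrix Mouse Exon 1.0 ST array in 6 samples. The deposited log2 signals came from RMA, run in Affymetrix Power Tools according to the submitters' processing notes, with versions and the use of quantiles not given in the sources used here. Core probe sets on mm9 were used, per the labels, and gave 23332 gene-level rows and 229581 exon-level probe sets. Sample medians lay between 6.47 and 6.79 at the gene level and between 7.11 and 7.42 at the exon level. Detection calls were not used, no row was set aside as background, and precision is limited by the number of arrays.

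Symbols came from the platform annotation, updated through a mouse gene table of GRCm38.p6. Rows with 1 symbol numbered 14996 at the gene level and 209279 at the exon level, where 24312 were updated.

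Stages were compared on gene-level rows, exon-level gene means, probe sets and exon usage in limma (version 3.58.1 under R 4.3.3). Each fit held all 6 samples, and tests were 2-sided with the variance moderated by eBayes. A row was called where the Benjamini-Hochberg adjusted p over all rows was under 0.05, for exon usage also with a difference of 1 or more. Exon usage needed 4 or more probe sets and a gene median that reached the 50th percentile of exon-level values in both stages. The 3 comparisons share samples. In simulated data for day 7 against day 0, over 23332 gene-level rows, the test found 2.99% of log2 changes of 1, 80.6% of those of 2 and 92.4% of those of 4, and made 5 false calls. The simulation changed 66 or 67 rows per size of change, fewer than the 2481 rows called in the data. The adjusted p is stricter with fewer changed rows, so these shares need not hold for the data.

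The 8 genes and the gene lists were chosen with earlier results of these data known. Per list and comparison, up to 4 called genes with the largest change were named, beside partners and relatives of the 8 genes. For each gene the 3 most similar profiles among rows ranging over 1 or more were named. Alternatives were sample centring, quantile normalization, a filter at the 25th percentile, only the samples compared, an intensity trend, the median of probe sets, a replicate block, and each sample left out. List counts and medians with each embryonic body sample left out were added after seeing the data.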

Additional observations from a re-analysis of the deposited data

How the results depend on the processing

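The values rest on 2 arrays per stage, and signals near the lower end of the array understate changes. The rows called at the gene level numbered 2481, 774 and 730 (day 7 against day 0, day 14 against day 0, day 14 against day 7) and 634 to 1770, 155 to 545 and 126 to 310 with a sample left out; at the exon level the means gave 3134, 1393 and 1431 against 1515 to 3111, 659 to 1507 and 703 to 1137, and the probe sets 18846, 7444 and 6008 against 6032 to 14459, 2086 to 5977 and 1093 to 3775. With only the samples of both stages, 310 rows and 3775 probe sets were called at day 14 against day 7. With an intensity trend 11466 probe sets were called at day 14 against day 0 and 10525 at day 14 against day 7. Exon usage had no calls in the whole table, against 16 and 2 with the trend and 132 and 112 with the lower filter (day 7 and day 14 against day 0). Centring the samples on their medians removed a shift of 0.131 between cardiac bodies and ES cells.

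Of the genes described, 4, 0 and 3 of 7 were called at the gene level in the 3 comparisons, in the same order, and 2 to 3, 0 and 0 to 2 with a sample left out. The count was 1 at day 14 against day 0 with dim rows left out, and 1 at day 14 against day 7 with only the samples of both stages or with the replicate block. Of the 8 exon-level means 4, 1 and 3 were called, and 3 to 7, 0 to 1 and 1 to 4 with a sample left out. Of the 68 probe sets 23, 2 and 7 were called, and 10 to 25, 0 to 2 and 2 to 12 with a sample left out. At day 14 against day 0, 4 probe sets were called with dim rows left out or with the trend, and at day 14 against day 7, 12 were called after centring, 11 after quantile normalization and 17 with the trend. The exon usage calls of Lmo2 stayed at 0 in each setting for day 14 against day 7. Gimap4 and Hbb-bh1 lie under the 25th percentile of the exon-level means and give no value with that filter. The cause of these changes was not tested.

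The sign turned for values that were not called. With a sample left out, the change of Gfi1b ran from -0.0397 to 1.58 at day 7 against day 0 (lowest without embryonic body replicate 1), from -0.0441 to 0.277 at day 14 against day 0 and from -1.465 to 0.156 at day 14 against day 7. In the exon-level means these ranges of Gfi1b were -0.225 to 1.97, -0.165 to 0.138 and -1.98 to 0.211. At day 14 against day 0 Tal1 ran from -0.331 to 0.0369 with a sample left out and Spi1 from -0.0175 to 0.200, and in the exon-level means Gimap4 ran from -0.0735 to 0.0887. In that comparison centring on the medians gave -0.0399 for Spi1 and -0.0147 for Gfi1b, and in the exon-level means -0.0422 for Hba-x and -0.166 for Gimap4. Quantile normalization gave -0.0158 for Spi1 and, in the exon-level means, -0.0242 for Hba-x. The difference of Spi1 between the embryonic body samples was 0.0207 in the exon-level means.

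The samples of different stages share replicate numbers. The difference between replicates 1 and 2 correlated across rows at 0.0826 for day 0 with day 7, 0.486 for day 0 with day 14 and 0.0913 for day 7 with day 14. Same-numbered samples thus deviated together between ES cells and cardiac bodies, but not by over 0.1 in the pairs with embryonic bodies, and the numbers were not taken to pair all samples. With the replicate number as a block, 4, 0 and 1 of the 7 genes were called at the gene level, 6, 1 and 3 of the 8 in the exon-level means, the 6 including both globins, and 24, 3 and 9 of the 68 probe sets.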
